A study of Mus musculus with 8 samples.

Results

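The transcripts described here are those that differed between macrophages given a treatment with lipopolysaccharide (LPS) and macrophages given a treatment without it, 4 arrays against 4. The cells were mouse bone marrow-derived macrophages (BMDM), which are grown from marrow precursors in culture, and each sample was hybridised to 1 Affymetrix mouse gene array after 6 h. The LPS-free groups were untreated cells and cells given IL4 with IL13, and the LPS groups were cells given IFN-gamma with LPS and cells given LPS with IL4 and IL13, with 2 arrays in each of the 4 groups. The labels give no strain, sex, age, dose or LPS source, and do not state whether both arrays of a group stem from separate animals or cultures, so the p-values measure the spread between these arrays, which may be technical. No group received LPS alone or IFN-gamma alone. IFN-gamma was therefore present on 2 of the 4 LPS arrays and on no other array, while IL4 and IL13 were balanced, being present on 2 arrays with LPS and 2 without.

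The comparison was the mean of the 2 LPS groups minus the mean of the 2 LPS-free groups, in a model with 4 group means. It splits into 2 parts that share no array. The first, IFN-gamma/LPS minus untreated, is called the IFN-gamma pair below and adds 2 agents at once. The second, LPS/IL4/IL13 minus IL4/IL13, is called the IL4/IL13 pair, and in it LPS was the only agent that differed. A gene is called consistent where the 4 against 4 contrast and both pairs passed an adjusted p of 0.05 in the same direction and no LPS array overlapped any LPS-free array. Values are the deposited log2 signals, so a difference of 1 is a doubling of signal, and errors after ± are standard errors of the fit over all 8 arrays. In bulk RNA, more cells of a type and more RNA per cell cannot be told apart.

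LPS, a component of the outer membrane of Gram-negative bacteria, is handed by CD14 to a receptor made of TLR4 and MD-2 (the product of Ly96). Adaptors of the MyD88 branch lead to NF-kB and MAP kinases and so to cytokine genes, while the TRIF branch leads to interferon-beta, which acts back on the macrophage and switches on antiviral genes. The response also induces its own inhibitors, and in macrophages it is known to go with a halt of proliferation and a shift of metabolism towards glycolysis. IFN-gamma sensitises macrophages to LPS, whereas IL4 and IL13 act through STAT6.

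The values of all 8 arrays had medians between 6.12 and 6.20, and the arrays of a group correlated at 0.9939 to 0.9974 across genes. Of 8 macrophage marker genes, all lay above the median gene in untreated cells, 3 were higher and 4 lower with LPS, and 1 rise and 4 falls were consistent. Over all genes 23.0% were called higher and 29.1% lower, and 9.42% and 18.7% were consistently so. The Fc receptor gene Fcgr1 was higher with LPS (1.70 ± 0.04), and Csf1r, the receptor for the macrophage growth factor, was lower (-0.93 ± 0.04).

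Of 19938 named genes, 4587 (23.0%) were higher and 5796 (29.1%) were lower with LPS in the 4 against 4 contrast, by limma with Benjamini-Hochberg adjustment over all of them. After centring of each array on its median these counts were 5718 and 5530, so that the excess of lower genes in this contrast turned over. The IFN-gamma pair called 4701 genes higher (23.6%) and 5656 lower (28.4%), and the IL4/IL13 pair called 2815 higher (14.1%) and 4504 lower (22.6%). The genes called in the same direction in both pairs numbered 5969, which is 57.6% of the calls in the IFN-gamma pair and 81.6% of those in the IL4/IL13 pair. Across all genes the 2 differences correlated at r = 0.819 (Spearman 0.704), a description over genes, which are not independent replicates. Fewer genes passed upward in the IFN-gamma pair when untreated replicate 1 was left out (2936), and fewer passed upward in the 4 against 4 contrast when 2 group means replaced the 4 (2950).

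Consistent genes numbered 1878 higher (9.42%) and 3726 lower (18.7%). They made up 40.9% of the genes called higher and 64.3% of those called lower. Of the 10383 calls of the 4 against 4 contrast, another 2938 passed in the IFN-gamma pair and not in the IL4/IL13 pair, 804 passed in the IL4/IL13 pair and not in the other, and 535 passed in neither. In a further 365 both pairs passed in one direction but an LPS array overlapped an LPS-free array, and in 137 the pairs passed in opposite directions. For the consistently higher genes the median level was 8.00 in untreated cells and 7.92 with IL4/IL13, and 9.65 with IFN-gamma/LPS and 9.49 with LPS/IL4/IL13. For the consistently lower genes the corresponding medians were 8.43 and 8.28 without LPS, and 7.14 and 7.32 with it. Increases reached further than decreases: 171 consistent genes were at least 8-fold higher and 40 were at least 8-fold lower. At least 32-fold higher were 34, against 0 lower. The median level over all genes was 6.3 in untreated cells, and the part of a lower limit of signal in this contrast was not tested.

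**Figure D1:**
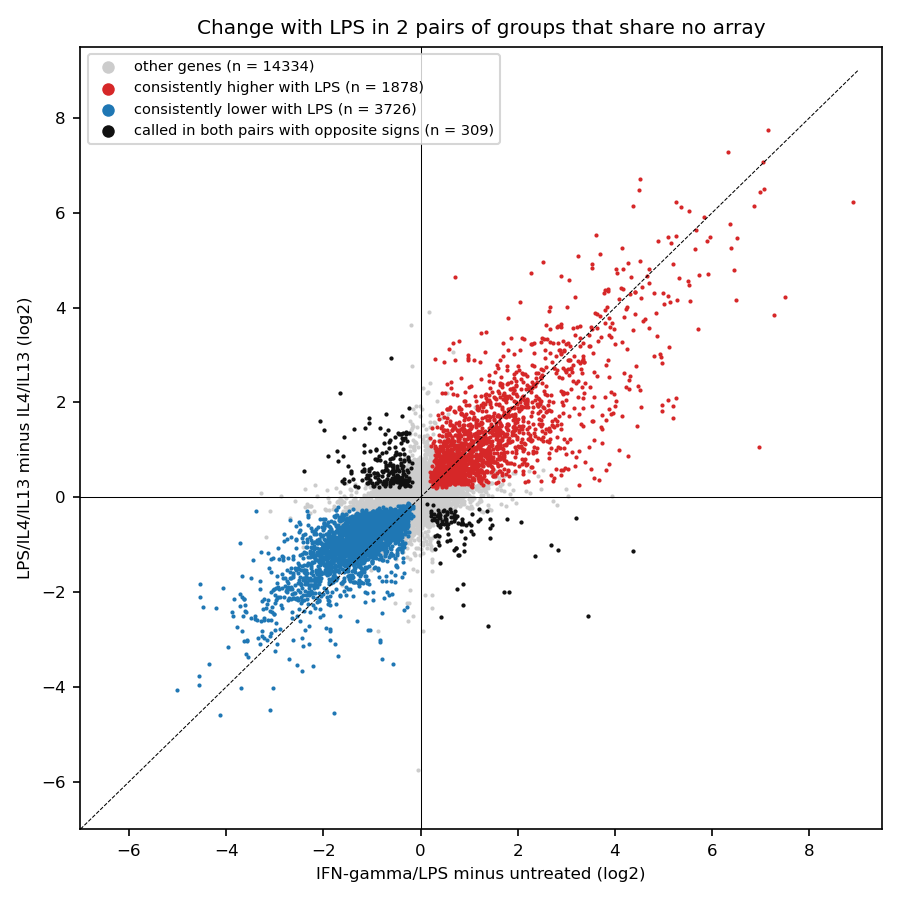
Each point is 1 of 19938 genes; the x axis is IFN-gamma/LPS minus untreated and the y axis LPS/IL4/IL13 minus IL4/IL13, both in log2 units of 2 arrays against 2. The 1878 consistently higher genes are red, the 3726 consistently lower genes blue and the 309 genes called with opposite signs black; the dashed line marks equal change.

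The 12 consistent genes that rose most included cytokines, a chemokine, surface receptors and inducible enzymes. Il6, which encodes the cytokine that drives the acute phase response, read 3.41 and 3.40 on the untreated arrays, 3.52 and 3.57 on the IL4/IL13 arrays, 12.30 and 12.30 on the IFN-gamma/LPS arrays and 10.02 and 9.52 on the LPS/IL4/IL13 arrays. It was below 4 on every array without LPS and above 9 on every array with it, and it rose by 7.56 ± 0.10 (adjusted p = 5.4e-14, limma), about 189-fold, with a smaller change in the IL4/IL13 pair (6.23) than in the IFN-gamma pair (8.90). Il1a, an alarm cytokine of the interleukin-1 family, read 4.55 and 4.66 on the untreated arrays, 5.06 and 4.45 on the IL4/IL13 arrays, 11.75 and 11.76 on the IFN-gamma/LPS arrays and 12.54 and 12.48 on the LPS/IL4/IL13 arrays. All LPS arrays were more than 6 above all LPS-free arrays. Its changes in the pairs were 7.15 and 7.76, a difference that did not pass over all genes (adjusted p = 0.075, limma), although its own unadjusted 95% interval of -1.08 to -0.13 left out 0. Intervals given for other differences are unadjusted too. Cd69, a surface protein that appears early on activated leukocytes, read 5.50 and 5.71 on the untreated arrays, 4.82 and 4.99 on the IL4/IL13 arrays, 12.65 and 12.66 on the IFN-gamma/LPS arrays and 11.96 and 12.01 on the LPS/IL4/IL13 arrays. Both LPS groups stood near 12, and the 95% interval for the difference between the 2 changes, 7.05 and 7.08, was -0.34 to 0.28.

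Nos2, the inducible nitric oxide synthase that is used as a mark of the IFN-gamma/LPS state, read 5.73 and 5.60 on the untreated arrays, 5.76 and 6.01 on the IL4/IL13 arrays, 12.76 and 12.73 on the IFN-gamma/LPS arrays and 12.34 and 12.44 on the LPS/IL4/IL13 arrays. The LPS/IL4/IL13 arrays were therefore within 0.5 of the IFN-gamma/LPS arrays, and all 4 were more than 6 above every LPS-free array. Ptgs2, the inducible cyclooxygenase that makes prostaglandin precursors, read 6.80 and 7.05 on the untreated arrays, 7.51 and 7.36 on the IL4/IL13 arrays, 13.30 and 13.30 on the IFN-gamma/LPS arrays and 13.20 and 13.20 on the LPS/IL4/IL13 arrays. Acod1, which makes itaconate from a tricarboxylic acid cycle intermediate, read 6.12 and 6.64 on the untreated arrays, 7.17 and 6.90 on the IL4/IL13 arrays, 13.26 and 13.21 on the IFN-gamma/LPS arrays and 13.19 and 13.18 on the LPS/IL4/IL13 arrays. For these last 2 genes all 4 LPS arrays lay within 1 unit of the highest value in the table, 13.71, and the part of an upper limit of the array in the likeness of the 2 LPS groups was not tested. Cxcl9, a chemokine for T cells that is best known as an IFN-gamma target, ranged from 5.91 to 6.53 without LPS and 12.48 to 13.25 with it, and its rise passed with IFN-gamma (6.98) and without it (6.44).

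The other 5 of the 12 largest increases had the same form, with wide gaps between the LPS and LPS-free arrays. Slamf1, a self-ligand receptor of leukocytes, ranged from 5.03 to 5.48 without LPS and 11.36 to 12.62 with it. Upp1, the uridine phosphorylase of pyrimidine salvage, ranged from 5.12 to 5.80 without LPS and 11.00 to 11.94 with it, and Lipg, an endothelial-type lipase, from 4.61 to 5.71 without LPS and 10.58 to 11.45 with it. Edn1, which encodes the vasoconstrictor peptide endothelin, rose by 5.79 ± 0.07, and Saa3, an acute phase apolipoprotein, by 5.75 ± 0.09. Both were higher on each LPS/IL4/IL13 array than on each IFN-gamma/LPS array, and the difference between the pairs was -0.52 ± 0.13 for Edn1 (adjusted p = 0.015) and -0.77 ± 0.18 for Saa3 (adjusted p = 0.0093).

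**Figure D2:**
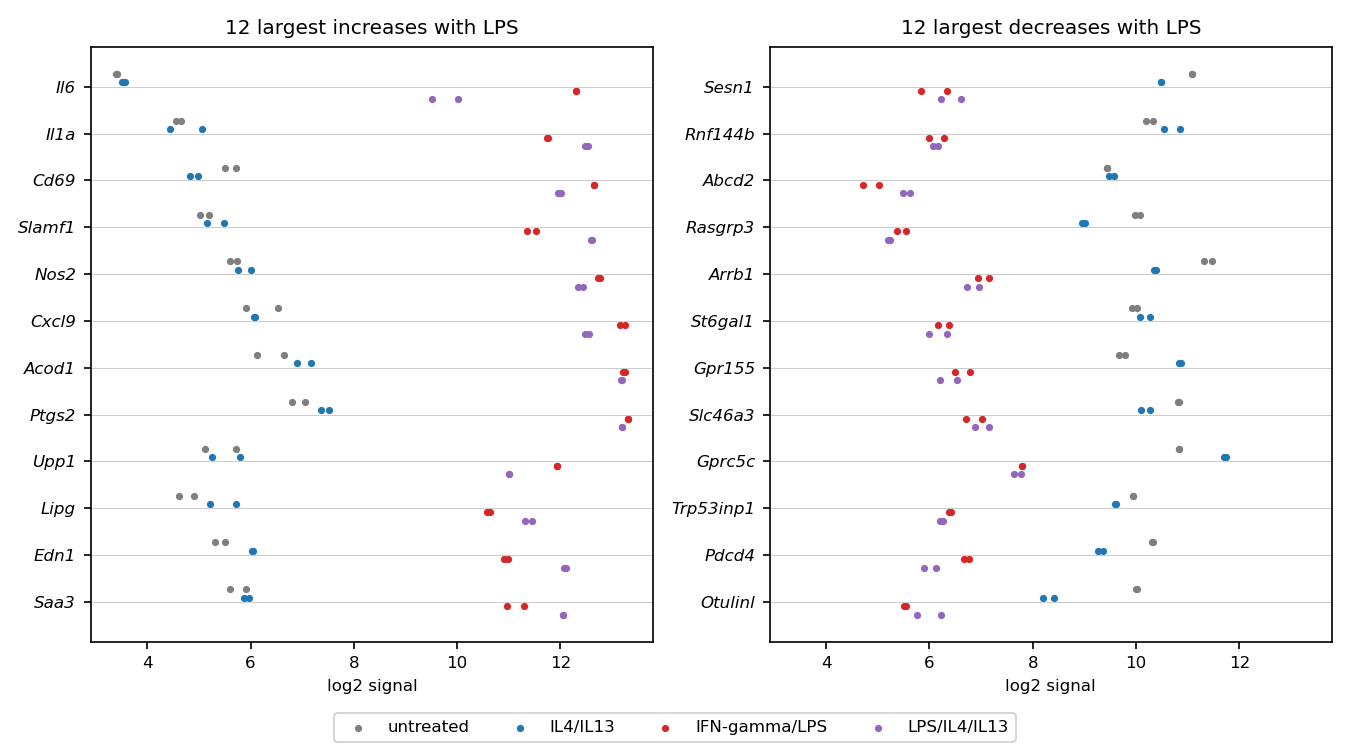
Log2 signal (x axis) of the 12 consistent genes with the largest increase and the 12 with the largest decrease, 1 point per array and 2 per group, coloured by group. In each gene the 4 LPS arrays (red, purple) are apart from the 4 LPS-free arrays (grey, blue); Il6 spans 3.40 to 12.30.

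The promoters of these genes are shown because NF-kB, interferon-activated factors and AP-1 are the classes of transcription factor that LPS is known to engage. RefSeq promoters (assembly GRCm38.p6) were at hand for 9 of the 12 highest and 8 of the 12 lowest genes. Some genes have several starts, as Upp1 and St6gal1 with 3 each, and a match before any of them counted for the gene. The 250 bases before each start were searched on both strands for 3 motifs. These were an NF-kB core (GGGA, any 2 bases, TTCC), an interferon-stimulated response element (ISRE) core (TTTC, any 2 bases, TTTC) and an AP-1 pattern. The AP-1 pattern, called the AP-1 site below, was TGANTCA with any base at N, so that TGAATCA, as found for St6gal1, counted too. The stretches below are written 5′ to 3′ on the strand of the gene, with the match in capitals.
Il6: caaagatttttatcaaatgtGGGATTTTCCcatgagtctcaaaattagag
Edn1: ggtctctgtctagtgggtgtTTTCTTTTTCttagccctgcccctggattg
Saa3: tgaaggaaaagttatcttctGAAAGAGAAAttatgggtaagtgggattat
Il1a: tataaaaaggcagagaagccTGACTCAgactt
Upp1: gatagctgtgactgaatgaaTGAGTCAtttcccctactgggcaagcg
St6gal1: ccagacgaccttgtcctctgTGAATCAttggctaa
The Il6 stretch, with the NF-kB core 44 bases before the start, is chr5:30013050-30013099 on the plus strand. The ISRE cores, the one of Saa3 as its reverse complement, lie in chr13:42301378-42301427 on the plus strand and chr7:46715772-46715821 on the minus strand. The AP-1 matches lie in chr2:129309973-129310004 on the minus strand, in chr11:9117943-9117989 on the plus strand and, for the lowered gene St6gal1, in chr16:23290435-23290469 on the plus strand. Il6 also held an AP-1 match, 249 bases before the start, and no match in these promoters overlapped one of another motif. Of the 9 highest genes with a promoter, 1 held the NF-kB core, 2 the ISRE core and 3 the AP-1 site, and of the 8 lowest 1 held the AP-1 site.

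Over all 15563 tested genes with such a promoter, 1.32% held the NF-kB core, 3.40% the ISRE core and 7.11% the AP-1 site. Among the 1483 consistently higher genes the shares were 2.29%, 6.81% and 7.08%, and among the 3116 consistently lower genes they were 1.09%, 2.47% and 4.40%. Of the consistent genes that were at least 8-fold higher 126 had a promoter entry, and of these 7 held the NF-kB core (5.56%), 21 the ISRE core (16.7%) and 24 the AP-1 site (19.0%). Of 30 such genes at least 8-fold lower, 0 held the NF-kB core, 1 the ISRE core and 3 the AP-1 site. A match is a run of letters in this window and not a measured binding site.

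Among the genes that fell most were several that restrain growth or tune receptor signals. Sesn1, a sestrin that restrains the growth kinase mTORC1, read 11.09 and 11.09 on the untreated arrays, 10.49 and 10.48 on the IL4/IL13 arrays, 5.84 and 6.33 on the IFN-gamma/LPS arrays and 6.61 and 6.23 on the LPS/IL4/IL13 arrays. It changed by -4.54 ± 0.11, with all LPS arrays under 7 and all LPS-free arrays above 10. Arrb1, a beta-arrestin that uncouples G protein-coupled receptors, read 11.48 and 11.31 on the untreated arrays, 10.35 and 10.38 on the IL4/IL13 arrays, 6.94 and 7.16 on the IFN-gamma/LPS arrays and 6.96 and 6.72 on the LPS/IL4/IL13 arrays. Rasgrp3, an activator of Ras and Rap proteins, read 10.08 and 9.98 on the untreated arrays, 8.95 and 9.01 on the IL4/IL13 arrays, 5.55 and 5.38 on the IFN-gamma/LPS arrays and 5.24 and 5.19 on the LPS/IL4/IL13 arrays. In both, the groups without LPS differed from each other by about 1 unit, and the LPS groups lay at least 3 units below either.

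Trp53inp1 and Pdcd4 encode a stress protein downstream of p53 and an inhibitor of translation initiation. Trp53inp1 ranged from 9.59 to 9.95 without LPS and 6.21 to 6.42 with it, and its changes of -3.55 and -3.37 in the pairs had a 95% interval for their difference of -0.46 to 0.09. Pdcd4 ranged from 9.26 to 10.32 without LPS and 5.89 to 6.77 with it. St6gal1, which adds sialic acid to glycoproteins, ranged from 9.93 to 10.28 without LPS and 5.99 to 6.37 with it, and Abcd2, a peroxisomal importer of long-chain fatty acids, from 9.43 to 9.58 without LPS and 4.72 to 5.63 with it. The ubiquitin ligase gene Rnf144b changed by -4.36 ± 0.09, the membrane protein gene Gpr155 by -3.79 ± 0.09, the lysosomal transporter gene Slc46a3 by -3.56 ± 0.09 and the orphan receptor gene Gprc5c by -3.54 ± 0.06. Otulinl, a relative of the deubiquitinase OTULIN, had the most unequal pairs of the 12, -4.49 and -2.32, with a difference of -2.17 ± 0.20 (adjusted p = 1.3e-05).

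In the 21 gene lists that follow, a list is given by its counts and its median, beside 23.0% of all genes called higher, 29.1% called lower and a median change of 0.05 over all genes. The lists and their members were chosen with earlier results of these data known. Some hold genes already named above for their large change, so the counts and medians are a description. Of the 20 measured members of the LPS receptor complex with its adaptors and kinases, 12 rose, 6 fell and 2 did not pass, and 7 rises and 4 falls were consistent (median 0.35). The ubiquitin ligase Peli1, which acts on IRAK kinases, rose most (2.96 ± 0.07), and Ikbke (1.79 ± 0.06) and Irak2 (1.72 ± 0.06), a non-classical IkB kinase and an interleukin-1 receptor-associated kinase, rose too. Ticam2, the bridging adaptor of the TRIF branch, fell (-1.62 ± 0.07), by more in the IL4/IL13 pair (-2.44) than in the IFN-gamma pair (-0.79). Lbp, the serum protein that loads LPS onto CD14, and Tirap, the bridging adaptor of MyD88, did not pass (0.00 and 0.04), but Tirap fell in the first pair and rose in the second (-0.57 and 0.64).

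The receptor itself did not move in one direction. Tlr4 and Ly96 were picked after their values were seen. Tlr4 read 9.60 and 9.67 on the untreated arrays, 10.10 and 9.99 on the IL4/IL13 arrays, 8.80 and 8.68 on the IFN-gamma/LPS arrays and 10.45 and 10.16 on the LPS/IL4/IL13 arrays, lower with LPS in the IFN-gamma pair (-0.90) and not called in the other (0.26), with a difference of -1.16 ± 0.14 (adjusted p = 0.00013). Its partner Ly96 passed at 0.27 ± 0.07 with overlapping arrays and did not pass in the IL4/IL13 pair. Cd14 read 11.34 and 11.34 on the untreated arrays, 9.93 and 9.91 on the IL4/IL13 arrays, 11.31 and 11.19 on the IFN-gamma/LPS arrays and 11.96 and 11.73 on the LPS/IL4/IL13 arrays. It was thus level in the IFN-gamma pair and about 2 units higher with LPS in the IL4/IL13 pair, from the lowest to the highest group of the series.

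All 12 measured genes for NF-kB subunits, IkB proteins and IkB kinases passed, 11 up and 1 down, with 10 consistent rises and a median of 1.44. Genes for IkB proteins led: Nfkbie rose by 3.30 ± 0.07, Nfkbiz by 3.29 ± 0.06 and Nfkbia, the main brake that holds NF-kB in the cytoplasm, by 2.38 ± 0.05. Nfkbia read 10.20 and 10.03 on the untreated arrays, 9.75 and 9.85 on the IL4/IL13 arrays, 12.32 and 12.31 on the IFN-gamma/LPS arrays and 12.36 and 12.35 on the LPS/IL4/IL13 arrays. Of the subunits, Nfkb2 rose by 2.25 ± 0.05. The kinase genes Ikbkb and Ikbkg changed least (0.27 and -0.31) and neither was consistent.

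Feedback inhibitors of LPS signalling rose in 17 of 20 cases, with 1 fall, 15 consistent rises and a median of 2.01. Socs3, which blocks signalling by the IL-6 receptor, read 6.35 and 6.63 on the untreated arrays, 6.71 and 6.66 on the IL4/IL13 arrays, 11.62 and 11.68 on the IFN-gamma/LPS arrays and 12.12 and 11.99 on the LPS/IL4/IL13 arrays, with the LPS arrays of both kinds between 11.62 and 12.12. Tnfaip3, the ubiquitin editor A20, ranged from 8.04 to 8.48 without LPS and 12.18 to 12.34 with it. The cytokine gene Il10 rose by 4.49 ± 0.10 and Il1rn, the decoy ligand of the interleukin-1 receptor, by 4.38 ± 0.06. Sigirr and Cyld did not pass (0.02 and 0.05). Socs1, the inhibitor of JAK kinases that IFN-gamma induces, passed at 1.98 ± 0.09 and was not consistent. It changed by 3.94 ± 0.12 in the IFN-gamma pair and by 0.02 ± 0.12 in the IL4/IL13 pair. Socs1 already stood high with IL4/IL13 alone. Its group means were 6.54 in untreated, 10.28 in IL4/IL13, 10.48 in IFN-gamma/LPS and 10.30 in LPS/IL4/IL13 cells.

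Immediate-early and stress transcription factors rose in 16 of 21 cases and fell in 1, with 11 consistent rises and a median of 1.03. Batf, a partner of JUN and IRF proteins, rose by 2.83 ± 0.07, Maff by 2.52 ± 0.07 and Junb by 2.41 ± 0.07. Junb changed by 2.39 and 2.43 in the 2 pairs. Irf1, an IFN-gamma-inducible activator of interferon-type genes, rose by 3.20 in the IFN-gamma pair and by 0.86 in the IL4/IL13 pair, a difference of 2.34 ± 0.11 (adjusted p = 1e-07). Fosb and Jund did not pass (0.11 and 0.09), but Jund rose in the IFN-gamma pair (0.43), with -0.24 in the other, which did not pass.

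All 18 genes for inflammatory cytokines and colony-stimulating factors passed upward, 16 of them consistently, with a median of 2.93. Besides Il6 and Il1a, Il1b read 7.96 and 7.91 on the untreated arrays, 5.62 and 6.03 on the IL4/IL13 arrays, 12.41 and 12.48 on the IFN-gamma/LPS arrays and 12.54 and 12.54 on the LPS/IL4/IL13 arrays. It was the reverse of Il6 in that its rise was smaller in the IFN-gamma pair (4.51) than in the IL4/IL13 pair (6.72), and untreated cells lay above IL4/IL13 cells. Il27 rose by 5.0 ± 0.09. Csf2 and Il23a had the highest p-values of the list, with changes of 0.28 and 0.35.

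Chemokine genes rose in 18 of 19 cases, 16 consistently, with a median of 3.54, and Ccl6, picked after its values were seen, was the 1 that fell (-0.94 ± 0.05). Cxcl10 and Cxcl11, which like Cxcl9 attract T cells, rose by 5.74 ± 0.06 and 5.65 ± 0.10, and Ccl12, a monocyte chemokine, by 5.72 ± 0.11. Cxcl10 read 8.30 and 8.14 on the untreated arrays, 7.03 and 7.27 on the IL4/IL13 arrays, 13.50 and 13.46 on the IFN-gamma/LPS arrays and 13.35 and 13.40 on the LPS/IL4/IL13 arrays. Its LPS arrays were all near the top of the scale, whatever the other agents. Ccl9 and Ccl17 passed at 0.34 and 1.52, but neither was consistent.

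Interferon-beta and the interferon-stimulated antiviral genes rose in 18 of 18 measured cases, 17 consistently (median 3.44). Mx1 and Mx2, antiviral GTPases, rose by 5.39 ± 0.08 and 4.76 ± 0.11, Ifit2 by 4.61 ± 0.07 and Oasl1 by 4.49 ± 0.06. Mx1 read 6.59 and 6.52 on the untreated arrays, 6.39 and 6.00 on the IL4/IL13 arrays, 11.82 and 11.82 on the IFN-gamma/LPS arrays and 11.69 and 11.72 on the LPS/IL4/IL13 arrays. The rise was there without added IFN-gamma, as 5.51 ± 0.11 in the IL4/IL13 pair, and the medians of the list in the 2 pairs were 3.64 and 3.54. Ifnb1 itself passed at 0.71 ± 0.09 and was not consistent, and Irf9 changed by 0.46 ± 0.06. In the difference between pairs, 6 of the 18 passed with a larger rise in the IFN-gamma pair and 1 with a larger rise in the other, while over all genes 6.87% passed with a positive difference and 13.2% with a negative one.

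Of 9 measured IFN-gamma-inducible genes 8 rose and 1 fell, 7 of the rises being consistent, with a median of 4.14. The guanylate-binding protein genes Gbp4 and Gbp5 and the immunity-related GTPase gene Iigp1, all of which act on vacuoles of pathogens, rose in the IL4/IL13 pair by 3.85, 4.16 and 3.54, and in the IFN-gamma pair by 7.29, 6.49 and 5.72. Gbp5 read 6.01 and 5.95 on the untreated arrays, 8.15 and 7.93 on the IL4/IL13 arrays, 12.46 and 12.48 on the IFN-gamma/LPS arrays and 12.17 and 12.22 on the LPS/IL4/IL13 arrays. Its LPS/IL4/IL13 arrays stood clear of both LPS-free groups and below the IFN-gamma/LPS arrays. A larger rise in the IFN-gamma pair passed for 7 of the 8 genes that rose, and for Cxcl9 it did not pass (adjusted p = 0.1, limma). Such a difference holds the LPS-free levels as well as the LPS levels. In untreated, IL4/IL13, IFN-gamma/LPS and LPS/IL4/IL13 cells the means were 5.98, 8.04, 12.47 and 12.20 for Gbp5. They were 6.55, 8.14, 12.27 and 11.68 for Iigp1, and 5.35, 6.96, 12.64 and 10.80 for Gbp4. In each, IL4/IL13 cells stood above untreated cells. Ciita, the class II transactivator, passed at -0.40 and changed by -0.06 and -0.75 in the 2 pairs, the larger change being the fall in the IL4/IL13 pair.

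Effector enzymes and antimicrobial products rose in 14 of 18 measured cases and fell in 3, with 11 consistent rises and 1 consistent fall (median 2.27). Nos2, Acod1, Ptgs2 and Saa3, described above, led the list. Ncf1, a subunit of the phagocyte oxidase, did not pass (-0.02), and Slpi, a protease inhibitor, passed at 0.23 in the 4 against 4 contrast and not in the IL4/IL13 pair.

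**Figure D3:**
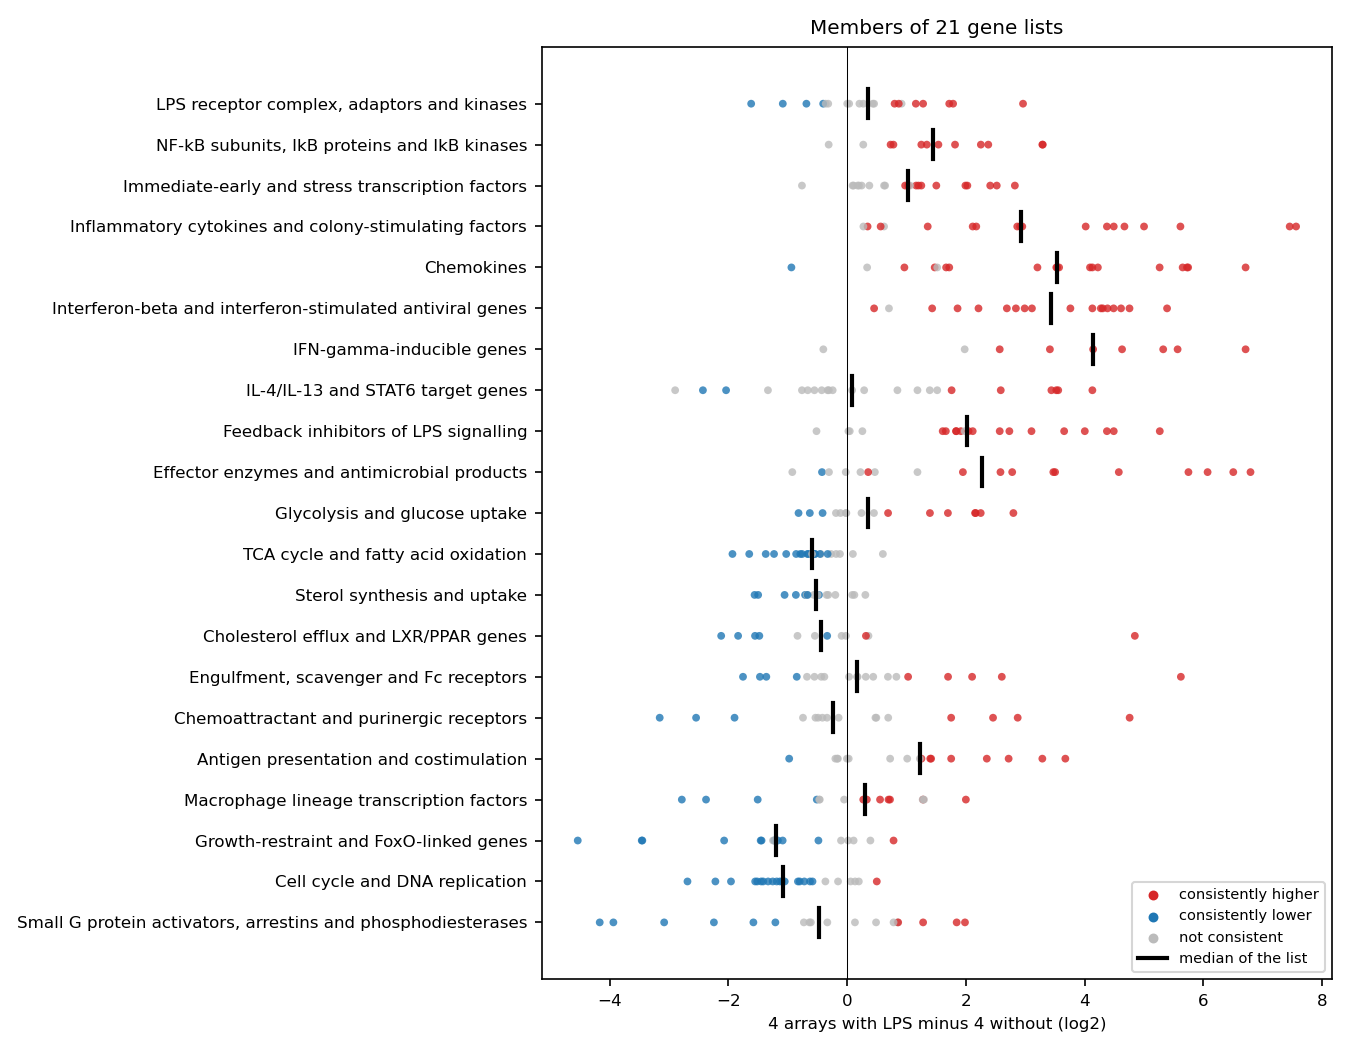
Each point is 1 member of 1 of 21 gene lists, placed by its 4 against 4 log2 difference (x axis); red and blue mark consistent genes, grey the others, and the black bar is the list's median. The medians run from -1.20 for growth-restraint genes to 4.14 for IFN-gamma-inducible genes. The lists were chosen with earlier results of these data known.

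Among 16 genes of glycolysis and glucose uptake 9 rose, 4 fell and 3 did not pass, with a median of 0.35. Pfkfb3, which makes the activator of phosphofructokinase, rose by 2.80 ± 0.07, by 1.81 in the IFN-gamma pair and 3.79 in the IL4/IL13 pair. The hexokinase gene Hk3 rose by 2.25 ± 0.06, the phosphofructokinase gene Pfkp by 2.17 ± 0.05 and the transporter gene Slc2a6 by 2.16 ± 0.05. Pkm and Ldha, the final enzymes of glycolysis, did not pass (-0.01 and -0.02).

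Genes of the tricarboxylic acid cycle and fatty acid oxidation went the other way, with 19 of 22 lower, 1 higher, 15 consistent falls and a median of -0.59. The acyl-CoA dehydrogenase gene Acadm changed by -1.93 ± 0.09 and Cpt1a, which admits fatty acids to mitochondria, by -1.65 ± 0.06. Fumarate hydratase (Fh1) changed by -1.37 ± 0.07 and the isocitrate dehydrogenase subunit gene Idh3g by -1.23 ± 0.05. Cpt1a read 10.94 and 10.90 on the untreated arrays, 10.48 and 10.46 on the IL4/IL13 arrays, 9.02 and 9.16 on the IFN-gamma/LPS arrays and 9.08 and 8.93 on the LPS/IL4/IL13 arrays. Etfa and Sucla2 did not pass (0.10 and -0.12).

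Of 16 sterol synthesis and uptake genes 12 fell and 1 rose, with 7 consistent falls (median -0.53). Dhcr7, Msmo1, Nsdhl and Lss, enzymes of the pathway and the called members of largest change, changed by -1.56, -1.50, -1.05 and -0.86. Pmvk and Hmgcs1, the members with the highest p-values, were among the 3 that did not pass (0.09 and 0.12). Among 12 genes of cholesterol efflux and its nuclear receptors 7 fell and 3 rose, with 5 and 2 consistent (median -0.44). Ch25h, whose product 25-hydroxycholesterol has antiviral activity, rose by 4.85 ± 0.06 and ranged from 6.12 to 7.75 without LPS and 11.69 to 11.94 with it. The receptor genes Rxra and Pparg fell (-2.12 ± 0.09 and -1.55 ± 0.05). Ppard and Mylip did not pass (-0.02 and -0.09), but each passed in both pairs with opposite signs, Ppard at -0.48 and 0.44 and Mylip at 0.29 and -0.48.

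On the cell surface the lists were split. Engulfment, scavenger and Fc receptors rose in 10 and fell in 8 of 20 cases (median 0.17; 5 and 4 consistent). Olr1 and Msr1, scavenger receptors for modified lipoprotein, rose by 5.62 ± 0.07 and 2.61 ± 0.05, and Fcgr4 by 2.11 ± 0.04. Stab1, a scavenger receptor, fell (-1.75 ± 0.05), by -2.67 against -0.84 in the pairs. Olr1 read 4.87 and 4.78 on the untreated arrays, 7.33 and 7.11 on the IL4/IL13 arrays, 11.30 and 11.26 on the IFN-gamma/LPS arrays and 12.05 and 11.96 on the LPS/IL4/IL13 arrays. Fcer1g and Tyro3 did not pass (0.03 and 0.17).

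Chemoattractant and purinergic receptor genes rose in 7 and fell in 9 of 16 cases (median -0.24; 4 and 3 consistent). Cxcr4 and S1pr1, receptors that hold or guide leukocytes in tissue, fell. Cxcr4 read 11.32 and 11.31 on the untreated arrays, 10.13 and 10.18 on the IL4/IL13 arrays, 7.47 and 7.39 on the IFN-gamma/LPS arrays and 7.70 and 7.76 on the LPS/IL4/IL13 arrays, and S1pr1 changed by -2.54 ± 0.08. Ccrl2, a non-signalling receptor for chemerin, rose by 4.76 ± 0.06 and P2ry13, a receptor for ADP, by 2.87 ± 0.07. C3ar1 and Cx3cr1 passed at -0.14 and -0.49 in the 4 against 4 contrast and not in the IL4/IL13 pair.

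Antigen presentation and costimulation genes rose in 11 and fell in 4 of 17 cases (median 1.23; 8 and 1 consistent). The costimulatory receptor gene Cd40 read 8.00 and 7.91 on the untreated arrays, 10.66 and 10.73 on the IL4/IL13 arrays, 13.22 and 13.20 on the IFN-gamma/LPS arrays and 12.88 and 12.70 on the LPS/IL4/IL13 arrays. Cd40 and Cd86 rose by 5.26 and 3.81 in the IFN-gamma pair and by 2.10 and 1.63 in the IL4/IL13 pair. The gene Cd274 for the inhibitory ligand PD-L1 rose by 3.29 ± 0.06 and the peptide transporter gene Tap1 by 2.35 ± 0.05. The class II gene H2-Ab1 and the class I light chain gene B2m did not pass (0.00 and 0.03), but H2-Ab1 fell in the first pair and rose in the second (-0.32 and 0.32). In this list 11 of 17 differences between pairs passed in the positive direction and 3 in the negative one, beside 6.87% and 13.2% of all genes.

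Macrophage lineage transcription factors rose in 9 and fell in 6 of 16 cases (median 0.30; 7 and 4 consistent). Cebpa, which maintains the myeloid programme, read 8.89 and 8.59 on the untreated arrays, 9.39 and 9.42 on the IL4/IL13 arrays, 6.27 and 6.36 on the IFN-gamma/LPS arrays and 6.29 and 6.24 on the LPS/IL4/IL13 arrays. It stood below 7 on all LPS arrays and above 8 on all others. Mef2c and Tfeb, a MADS-box factor and the regulator of lysosome genes, fell (-2.38 ± 0.07 and -1.51 ± 0.07), and Klf6 rose by 2.00 ± 0.04. Zeb2 did not pass (-0.05), and Spi1, the gene of PU.1, changed by 0.27 ± 0.04.

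Growth-restraint and FoxO-linked genes fell in 11 of 16 cases and rose in 2 (median -1.20; 10 consistent falls), among them Foxo3 (-2.07 ± 0.09). Ccng2 and Irs2 did not pass (0.02 and -0.10), but Ccng2 rose in the IFN-gamma pair and fell in the other (0.53 and -0.50), and Irs2 fell in the IFN-gamma pair (-0.46) and did not pass in the other (0.25). Cell cycle and DNA replication genes fell in 19 of 24 cases and rose in 2 (median -1.07; 18 consistent falls). Ccna2, the cyclin of DNA synthesis, read 8.80 and 8.97 on the untreated arrays, 9.04 and 8.68 on the IL4/IL13 arrays, 5.90 and 5.74 on the IFN-gamma/LPS arrays and 6.71 and 6.39 on the LPS/IL4/IL13 arrays. The mitotic kinase genes Plk1, Aurkb and Bub1 fell (-2.22 ± 0.11, -1.96 ± 0.07 and -1.55 ± 0.12). Tyms and Mki67 did not pass (0.06 and -0.15), but Tyms rose in the IFN-gamma pair (0.29), with -0.17 in the other, which did not pass. Most measured genes of both lists were thus lower on the LPS arrays.

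Of 18 measured activators and regulators of small G proteins, arrestins and phosphodiesterases 10 fell and 7 rose (median -0.47; 6 and 4 consistent). Besides Rasgrp3 and Arrb1, Pde3b, which breaks down cyclic nucleotides, changed by -3.08 ± 0.07 and Rgs18, which shortens G protein signals, by -2.24 ± 0.06. Pde3b read 9.75 and 9.71 on the untreated arrays, 7.92 and 7.81 on the IL4/IL13 arrays, 6.11 and 6.03 on the IFN-gamma/LPS arrays and 5.31 and 5.42 on the LPS/IL4/IL13 arrays. Grk3 did not pass (0.13), but rose in the IFN-gamma pair and fell in the other (0.68 and -0.41), and Rasgrp2 passed at -0.33.

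The next genes are those whose change with LPS was closest in the 2 pairs, among consistent genes that changed at least 4-fold. They were chosen for that likeness, so the values are a description. Tnf, the cytokine made first in the response, read 8.25 and 8.29 on the untreated arrays, 7.64 and 7.46 on the IL4/IL13 arrays, 12.94 and 12.93 on the IFN-gamma/LPS arrays and 12.15 and 12.30 on the LPS/IL4/IL13 arrays. Its changes were 4.67 and 4.68, with a 95% interval for their difference of -0.27 to 0.25, although the IL4/IL13 arrays stood lower than the untreated arrays and the LPS/IL4/IL13 arrays lower than the IFN-gamma/LPS arrays. Cmpk2, a mitochondrial nucleotide kinase induced by interferon, changed by 4.32 and 4.30 (-0.28 to 0.32). Ifit1bl2 and Oas1b, both of interferon-induced families, rose by 2.74 ± 0.11 and 2.74 ± 0.09. Vps54, of a vesicle tethering complex, and Etnk1, of phosphatidylethanolamine synthesis, rose by 2.07 ± 0.08 and 2.11 ± 0.08.

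On the lower side Pip4k2a, a phosphoinositide kinase, read 11.97 and 11.93 on the untreated arrays, 12.07 and 12.01 on the IL4/IL13 arrays, 9.27 and 9.53 on the IFN-gamma/LPS arrays and 9.61 and 9.46 on the LPS/IL4/IL13 arrays. Its 2 changes were -2.55 and -2.51 (interval -0.32 to 0.23). Kcnk6, a potassium channel gene, read 10.33 and 10.38 on the untreated arrays, 11.43 and 11.42 on the IL4/IL13 arrays, 8.32 and 8.12 on the IFN-gamma/LPS arrays and 9.24 and 9.36 on the LPS/IL4/IL13 arrays, about 1 unit higher in both IL4/IL13 groups than in their counterparts. The acid-activated chloride channel gene Pacc1 changed by -2.39 ± 0.08, Mlec, which binds glycans in the endoplasmic reticulum, by -2.03 ± 0.08, the phosphatase gene Ctdsp2 by -2.06 ± 0.07 and Chn2, a Rac regulator, by -2.25 ± 0.07. Over all consistent genes the 95% interval of the difference lay within 0.5 of 0 for 577 of 1878 higher and 1087 of 3726 lower genes.

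A difference between the pairs passed for 1370 of all genes in the positive direction (6.87%) and 2634 in the negative one (13.2%), and for 2048 consistent genes. Without untreated replicate 1 these counts were 905 and 1573, and without IL4/IL13 replicate 2 the negative count was 1737. Positive calls were 34.2% of all such calls, 44.8% after quantile normalization and 26.7% after median centring. Of the consistently higher genes 482 rose more in the IFN-gamma pair and 294 more in the IL4/IL13 pair. Of the consistently lower genes 1154 fell more in the IFN-gamma pair and 118 more in the IL4/IL13 pair. The fall was numerically larger in the IFN-gamma pair for 2956 of 3726 consistently lower genes and the rise for 1078 of 1878 higher ones. Because the first pair adds IFN-gamma and the second has IL4 and IL13 on both sides, the part of each agent in such a difference cannot be told apart.

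The consistent genes with the most unequal changes were also chosen for that property and are given as a description. Il12b, a subunit of interleukin-12 and interleukin-23, read 5.30 and 5.35 on the untreated arrays, 5.55 and 5.41 on the IL4/IL13 arrays, 12.29 and 12.31 on the IFN-gamma/LPS arrays and 6.49 and 6.59 on the LPS/IL4/IL13 arrays. It rose by 6.98 ± 0.10 in the IFN-gamma pair and by 1.06 ± 0.10 in the IL4/IL13 pair, so that its 4 against 4 value of 4.02 describes neither. Gbp4 read 5.04 and 5.66 on the untreated arrays, 6.95 and 6.96 on the IL4/IL13 arrays, 12.62 and 12.65 on the IFN-gamma/LPS arrays and 10.84 and 10.76 on the LPS/IL4/IL13 arrays. Tarm1, a receptor of myeloid cells, and Slc7a2, an importer of arginine, already stood high with IL4/IL13 alone: their group means were 6.73, 11.40, 11.93 and 13.08 for Tarm1 and 6.21, 10.55, 11.40 and 12.47 for Slc7a2, in untreated, IL4/IL13, IFN-gamma/LPS and LPS/IL4/IL13 cells. Prrg4 and Sele, the adhesion molecule E-selectin, rose by 4.27 and 0.87 and 3.68 and 0.37, in each case with the IFN-gamma pair first.

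In the other direction Il19, of the interleukin-10 family, read 5.20 and 5.61 on the untreated arrays, 5.64 and 5.66 on the IL4/IL13 arrays, 6.17 and 6.07 on the IFN-gamma/LPS arrays and 10.37 and 10.24 on the LPS/IL4/IL13 arrays. Its rise was 0.72 ± 0.13 in the IFN-gamma pair and 4.66 ± 0.13 in the IL4/IL13 pair, and its LPS/IL4/IL13 arrays were about 4 units above all the others. Abca1, the cholesterol exporter, read 11.32 and 11.30 on the untreated arrays, 10.05 and 10.08 on the IL4/IL13 arrays, 7.91 and 7.95 on the IFN-gamma/LPS arrays and 9.84 and 9.71 on the LPS/IL4/IL13 arrays, a fall of more than 3 units beside one of -0.29. Tlr13, a sensor of bacterial ribosomal RNA, and Slc40a1, the iron exporter ferroportin, changed by -3.72 and -0.96 and by -4.53 and -1.82. Calcrl, a receptor for adrenomedullin and calcitonin gene-related peptide, and Smim3, a small membrane protein, rose by 0.29 and 2.92 and 0.68 and 3.27.

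**Figure D4:**
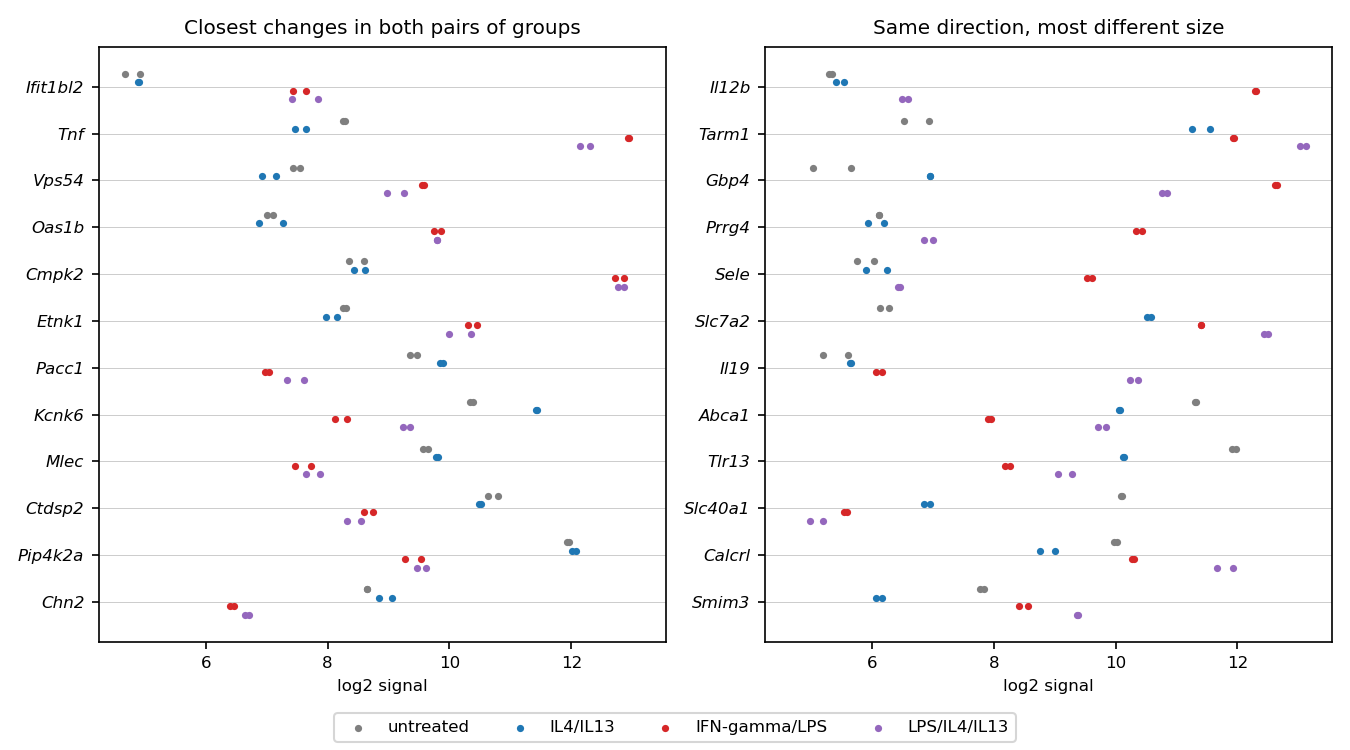
Log2 signal (x axis) per array for the 12 consistent genes whose change with LPS was closest in both pairs of groups (left) and the 12 whose change differed most (right), 2 points per group. Tnf moves by 4.67 in both pairs, while Il12b moves by 6.98 and 1.06 and Il19 by 0.72 and 4.66.

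In 309 genes (1.55%) both pairs passed with opposite signs, 104 higher in the IFN-gamma pair and lower in the other, and 205 the reverse. The 4 against 4 contrast did not call 172 of them. Kynu, an enzyme of tryptophan breakdown, read 5.09 and 5.05 on the untreated arrays, 9.27 and 9.02 on the IL4/IL13 arrays, 8.45 and 8.59 on the IFN-gamma/LPS arrays and 6.70 and 6.56 on the LPS/IL4/IL13 arrays. It changed by 3.45 ± 0.11 in the IFN-gamma pair and by -2.52 ± 0.11 in the IL4/IL13 pair, in which the cells without LPS were the highest group of the series. Tcf7l2, a transcription factor of the Wnt pathway, and Ppargc1b, a coactivator of mitochondrial genes, had the same form, with changes of 1.83 and -2.00 and 1.38 and -2.71. Dnase1l3 and Apol7c, a secreted nuclease and an apolipoprotein L, changed by 4.38 and -1.14 and 2.84 and -1.12.

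Hmox1, the haem-degrading enzyme, read 11.37 and 11.31 on the untreated arrays, 9.92 and 9.91 on the IL4/IL13 arrays, 9.02 and 8.85 on the IFN-gamma/LPS arrays and 10.47 and 10.48 on the LPS/IL4/IL13 arrays. It fell to the lowest group with IFN-gamma/LPS and rose with LPS/IL4/IL13 over IL4/IL13 alone. Gab1, a docking protein of receptor kinases, read 9.99 and 9.89 on the untreated arrays, 8.27 and 8.29 on the IL4/IL13 arrays, 8.26 and 8.31 on the IFN-gamma/LPS arrays and 10.57 and 10.37 on the LPS/IL4/IL13 arrays. Stk17b, a kinase linked to apoptosis, Il21r, the receptor for interleukin-21, and Ssh2, a phosphatase of cofilin, changed by -2.07 and 1.61, -2.00 and 1.41 and -1.59 and 1.28. The median of the 104 genes was 8.18 in untreated, 8.64 in IL4/IL13, 8.95 in IFN-gamma/LPS and 7.91 in LPS/IL4/IL13 cells, and that of the 205 was 9.01, 8.60, 8.35 and 9.32 in the same order. Of the 309 genes, 191 differed more between the 2 LPS groups and 118 more between the 2 groups without LPS, the latter including 6 of the 10 named here.

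**Figure D5:**
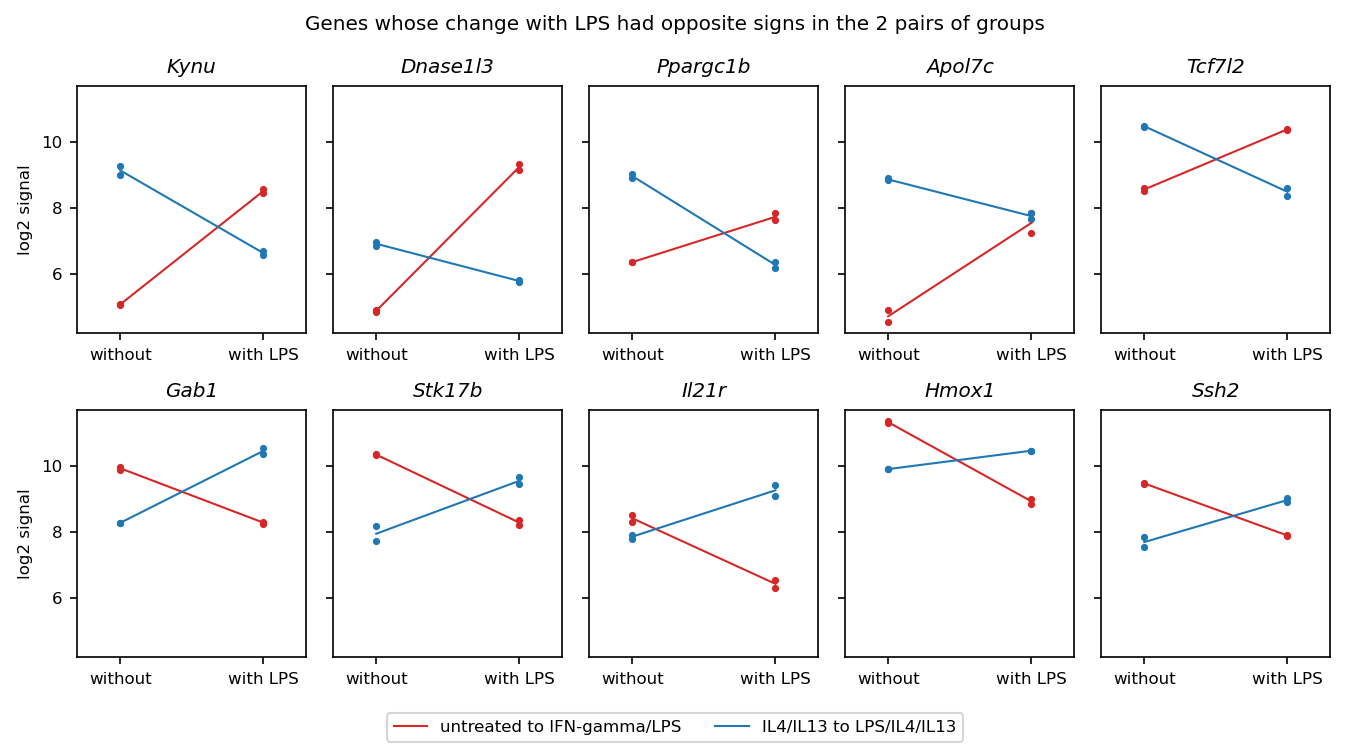
Log2 signal (y axis) without and with LPS for 10 genes whose 2 pairs passed in opposite directions; points are arrays, 2 per group, and lines join group means. The red lines (untreated to IFN-gamma/LPS) and blue lines (IL4/IL13 to LPS/IL4/IL13) cross or converge, as for Kynu with changes of 3.45 and -2.52.

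Genes known as targets of IL4, IL13 and STAT6 show the same mixture. Of 23, 11 rose, 11 fell and 1 did not pass, but only 6 rises and 2 falls were consistent (median 0.08). The largest rises were those of Ccl22, Ccl24, Slc7a2 and Tarm1. Ccl24 read 5.76 and 5.54 on the untreated arrays, 7.82 and 7.74 on the IL4/IL13 arrays, 8.64 and 8.71 on the IFN-gamma/LPS arrays and 11.90 and 11.70 on the LPS/IL4/IL13 arrays, above both LPS-free groups on every LPS array. Retnla, Arg1, Irf4 and Mgl2 were picked after their values were seen. Retnla, the secreted protein that marks alternative activation, read 4.67 and 4.70 on the untreated arrays, 10.15 and 10.33 on the IL4/IL13 arrays, 4.99 and 4.29 on the IFN-gamma/LPS arrays and 4.39 and 4.60 on the LPS/IL4/IL13 arrays. Its 4 against 4 value of -2.90 came from the IL4/IL13 pair, where it was -5.75 ± 0.19, while the difference between IFN-gamma/LPS and untreated cells did not pass (-0.05 ± 0.19). Irf4 and Mgl2 changed by -3.51 and -2.51 in that pair, and Arg1, the arginase, rose by 2.03. Alox15 did not pass (0.09), and Socs2 changed by 1.43 and -0.86 in the 2 pairs.

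Markers of cells that a marrow culture could also hold were tested in the same fit. Their counts stand beside 23.0% of all genes called higher and 29.1% called lower, and 9.42% and 18.7% consistently so. Among 10 dendritic cell markers 6 rose, 3 of them consistently: Fscn1, which bundles actin, by 2.34 ± 0.09, Clec9a by 1.80 ± 0.10 and Ccr7, the receptor for lymph node chemokines, by 1.75 ± 0.09. In the IFN-gamma and IL4/IL13 pairs Fscn1 rose by 2.64 and 2.04 and Clec9a by 1.69 and 1.92. Ccr7 rose by 2.94 and 0.57, so that its 4 against 4 value describes neither pair. Of the 4 that did not pass, Flt3 and Siglech had the highest p-values (changes of 0.00 and 0.02). The mean log2 signal over the 10 genes was 5.70 to 6.14 on the LPS-free arrays and 6.57 to 6.91 on the LPS arrays, and 2 of the 10 lay above the median gene in untreated cells. Of 10 neutrophil markers 1 rose and 3 fell, of 7 B lymphocyte markers 1 fell, of 9 T and NK lymphocyte markers 1 fell and of 9 mast cell and basophil markers 2 rose. Of 10 fibroblast and stromal markers 2 rose and 2 fell, with Dcn, a small matrix proteoglycan, the only consistent one of that list (1.55 ± 0.07), and of 4 measured erythroid markers 1 rose. The mean over the stromal list was 6.75 to 6.86 without LPS and 6.91 to 7.06 with it. Col1a1, the main fibroblast collagen gene, did not pass (-0.02), but passed at 0.25 after quantile normalization (adjusted p = 0.016, limma). The arrays have no detection calls, so that no marker can be said to be at 0, and the part of a changed cell mixture in the results was not tested.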

How the data were processed

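Total RNA of 8 samples of mouse BMDM, 2 per group, was labelled with biotin and hybridised to Affymetrix mouse gene arrays, with an RNA integrity number above 9 per the labels' protocols. Each array gave 1 value per probe set in the deposited table. The values are called a MAS5 signal per the labels, but as deposited they run from 1.46 to 13.71 with array medians of 6.12 to 6.20, which is a log2 scale, and were used as such. How the authors corrected background and normalized the arrays is not given in the sources used here, and no detection calls came with the values, so the precision rests on 2 arrays per group.

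Of 35556 probe sets, 21789 carried 1 gene symbol in the platform annotation, which can be old, 1621 carried several and 12146 none. Entrez identifiers of 21698 were found in RefSeq (GRCm38.p6), and 0 symbols changed. For the 999 genes with several probe sets the one with the highest mean over the 8 arrays was used, giving 19938 genes. Groups come from the sample titles. A model with 4 group means was fitted in R 4.3.3 with limma 3.58.1 (eBayes with trend, 4 residual and 7.55 prior degrees of freedom), and each contrast was adjusted by Benjamini-Hochberg over all genes. The script was tested on simulated data. Same-numbered arrays deviated from their group means with correlations of -0.36 to 0.22 over 6 pairings of groups, 3 of them over 0.1, so replicate numbers were not taken as pairs.

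The text names the 12 consistent genes with the largest rise and fall, the 6 per direction with the closest changes in both pairs (4 against 4 difference of at least 2) and the 6 with the most different changes. It also names the 5 per direction with opposite signs and, per list, at most 4 called members of largest change and at most 2 of highest p. Predicted genes and small RNAs were left out. The members and lists were chosen with earlier results of these data known. The lists hold 396 genes, of which 360 were measured, besides 8 lists of cell type markers. Alternatives were other normalizations, a filter on dim genes, other variance models, a replicate block, the mean of probe sets, each array left out in turn, and other rules of size and consistency.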

Additional observations from a re-analysis of the deposited data

Results flagged for a closer look

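The difference between the 2 LPS effects, the change in the IFN-gamma pair minus the change in the IL4/IL13 pair on the log2 scale, passed an adjusted p of 0.05 (limma) for 115 of the 184 genes named in the text. It was positive for 53 and negative for 62, and each value is given in parentheses. Since IFN-gamma was added in only 1 of the pairs, the parts of IFN-gamma and of IL4 with IL13 in a difference cannot be told apart. Groups of 2 arrays are too small for a test of single outlying arrays. Kynu (5.97), Il12b (5.92), Dnase1l3 (5.52), Ppargc1b (4.09), Apol7c (3.96) and Tcf7l2 (3.83) were named for a large positive difference, so that these values are a description. Tarm1 (3.53), Gbp4 (3.44), Prrg4 (3.40), Sele (3.31) and Slc7a2 (3.27) were named for a large positive difference, so that these values are a description. Il19 (-3.94), Gab1 (-3.85), Stk17b (-3.68), Il21r (-3.41), Abca1 (-3.09) and Hmox1 (-2.97) were named for a large negative difference. Ssh2 (-2.87), Tlr13 (-2.76), Slc40a1 (-2.71), Calcrl (-2.63) and Smim3 (-2.59) were named for a large negative difference.

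Cd40 (3.16), Il6 (2.67), Ccr7 (2.37), Irf1 (2.34), Gbp5 (2.34) and P2ry13 (2.19) rose in both pairs and more in the IFN-gamma pair. Iigp1 (2.18), Cd86 (2.18), Cd274 (2.00), Slc2a6 (1.85), Olr1 (1.67) and Ccl22 (1.46) rose in both pairs and more in the IFN-gamma pair. Ch25h (1.42), Pfkp (1.29), Maff (1.28), Tap1 (1.16), Il27 (1.06) and Upp1 (1.04) rose in both pairs and more in the IFN-gamma pair. Hk3 (0.81), Acod1 (0.71), Ptgs2 (0.61), Fscn1 (0.61), Nos2 (0.58) and Nfkbie (0.52) rose in both pairs and more in the IFN-gamma pair. Tnfaip3 (0.39) and Nfkb2 (0.38) rose in both pairs and more in the IFN-gamma pair. Il1b (-2.21), Pfkfb3 (-1.98), Msr1 (-1.50), Nfkbiz (-1.31) and Ccl24 (-0.995) rose in both pairs and more in the IL4/IL13 pair. Cxcl10 (-0.97), Slamf1 (-0.95), Saa3 (-0.77), Ikbke (-0.73) and Klf6 (-0.66) rose in both pairs and more in the IL4/IL13 pair. Il10 (-0.65), Irak2 (-0.56), Edn1 (-0.52), Fcgr1 (-0.52) and Nfkbia (-0.36) rose in both pairs and more in the IL4/IL13 pair.

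Otulinl (-2.17), Stab1 (-1.83), Fh1 (-1.49), Cxcr4 (-1.46), Acadm (-1.38) and Msmo1 (-1.19) fell in both pairs and more in the IFN-gamma pair. Pde3b (-1.16), S1pr1 (-1.08), Ccl6 (-1.01), Sesn1 (-0.94), Bub1 (-0.87) and Arrb1 (-0.82) fell in both pairs and more in the IFN-gamma pair. Slc46a3 (-0.80), Rasgrp3 (-0.80), Rxra (-0.77), Ccna2 (-0.76), Mef2c (-0.75) and Plk1 (-0.73) fell in both pairs and more in the IFN-gamma pair. Nsdhl (-0.63), Abcd2 (-0.59), Pparg (-0.54), Rgs18 (-0.48), Idh3g (-0.37) and Csf1r (-0.32) fell in both pairs and more in the IFN-gamma pair. Irf4 (2.95), Ticam2 (1.65), Gpr155 (1.39), Gprc5c (0.98) and Cebpa (0.72) fell in both pairs and more in the IL4/IL13 pair. Retnla (5.70), Socs1 (3.92), Mgl2 (2.35), Socs2 (2.29), Grk3 (1.09) and Ccng2 (1.03) were not consistent and changed more positively in the IFN-gamma pair. Mylip (0.77), Ifnb1 (0.75), Ciita (0.69), Jund (0.67) and Tyms (0.46) were not consistent and changed more positively in the IFN-gamma pair. Cd14 (-2.02), Arg1 (-1.69), Tirap (-1.20), Tlr4 (-1.16), Ppard (-0.92) and Ccl17 (-0.79) were not consistent and changed more negatively in the IFN-gamma pair. Ccl9 (-0.74), Cx3cr1 (-0.72), Irs2 (-0.71), H2-Ab1 (-0.64), Ikbkb (-0.43) and C3ar1 (-0.28) were not consistent and changed more negatively in the IFN-gamma pair.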

How the results depend on the processing

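The counts of genes stayed within 1.5 times of those reported in 151 of 160 comparisons with an alternative. An absolute log2 difference of at least 1 left 1063 genes higher and 1605 lower in the 4 against 4 contrast, and 766 and 971 consistent genes where both pairs had to reach it, since a condition was added. With 2 group means in place of 4 the contrast called 2950 genes higher; the cause was not tested. Leaving out each array in turn, the 4 against 4 contrast called 3559 to 4515 genes higher and 5387 to 5903 lower, and consistent genes numbered 1671 to 1848 and 3199 to 3850. The IFN-gamma pair then called 2936 to 4923 genes higher and the IL4/IL13 pair 2397 to 2843, while the difference between pairs was positive for 905 to 1585 and negative for 1573 to 3394. The low values of the IFN-gamma pair (2936) and of the difference (905 and 1573) came without untreated replicate 1, and 1737 negative differences were called without IL4/IL13 replicate 2, each with 1 array fewer in the fit. With the replicate number as a block the contrast called 4637 genes higher and 5796 lower, and 1887 and 3719 consistent genes, so the block changed no count by more than 1.5 times.

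Of the 5604 consistent genes, 4814 were consistent after quantile normalization and 5256 after median centring. Of 126 consistent genes named in the report, 122 to 126 were consistent under each of 15 alternatives, and 1 or more lost the call in 13 of them. The call was lost at least once by Il23a (in 10 alternatives), Calcrl and Sele (6 each), Spi1 (4), Abca1 and Irf4 (2 each), and Ccr7 and Clec9a (1 each). A gene that the filter on dim genes removed was counted as losing the call, although it was not tested there. Directions that turned were those of named genes with a change near 0. After quantile normalization these were B2m (-0.05), Col1a1 (0.25), Fcer1g (-0.04), Irs2 (0.17), Ppard (0.12), Siglech (-0.01) and Sucla2 (0.13), of which Col1a1 passed (adjusted p = 0.016, limma, against 0.82 in the reported fit). After median centring they were Col1a1, Ldha, Ncf1 and Ppard (each 0.02) and Pkm (0.03), and with the mean of probe sets Ssh2 (0.01). With 1 array left out, values on both sides of 0 were found for Col1a1 (-0.07 to 0.02), Ccng2 (-0.04 to 0.08), Pkm (-0.05 to 0.03), Siglech (-0.03 to 0.08), Sigirr (-0.04 to 0.08) and Etfa (-0.01 to 0.20); the cause was not tested. Without detection calls, what signal over background limits is unknown.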

Other observations

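Probe sets outside the named genes also differed with LPS. Of 1621 probe sets that carry several gene symbols, 75 (4.63%) were consistently higher and 261 (16.1%) consistently lower by the same fit and rule. Of 12146 with no symbol in the annotation, 348 (2.87%) were consistently higher and 651 (5.36%) consistently lower.

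Consistent genes were unevenly spread over signal. The mean used for this includes the LPS arrays, so a rise with LPS itself moves a gene towards brighter signal and a fall towards dimmer signal. With the named genes split into 3 equal parts of 6646 by their mean over all 8 arrays, the dimmest part held 109 consistently higher and 126 consistently lower genes, the middle part 373 and 1352, and the brightest 1396 and 2248.

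Another rule asked each LPS group to pass against each LPS-free group in the same direction and set no condition on overlap of the arrays. Under it 1704 genes were higher and 3436 lower.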
